A study of Mus musculus with 23 samples.

Results

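The UDP-glucuronosyltransferases (Ugt enzymes) of the mouse nose were followed across odor, dose and litter through 9 listed genes, out of 23481 gene symbols measured. The genes were Ugt2a1, Ugt2a2, Ugt1a1, Ugt1a2, Ugt1a5, Ugt1a6a, Ugt1a6b, Ugt1a9 and Ugt1a10, and all 9 were found in all 23 libraries. Each library holds olfactory epithelium RNA bound to ribosomes that carry phosphorylated S6 (pS6), a ribosomal protein mark that increases in neurons after activity, and that an antibody had captured. Enrichment over unselected RNA was not analysed here. All mice were C57BL/6 at postnatal day 21, and every group was exposed for 1 h. The acetophenone experiment comprised 5 controls (litters 1 to 5), 3 libraries at 1% acetophenone (litters 3 to 5) and 3 at 100% (litters 1 to 3). In the TMT experiment (TMT is trimethylthiazoline, a compound of fox secretions) there were 4 libraries each of control, 1% and 100%, 1 from each of litters 1 to 4. Not given in the sources used here are the exposure of the controls and whether a library is 1 mouse or a pool.

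Ugt enzymes sit in the membrane of the endoplasmic reticulum and join glucuronic acid, taken from UDP-glucuronic acid, to small hydrophobic molecules, which makes them soluble and easier to remove. In the olfactory mucosa they act after cytochrome P450 enzymes on inhaled chemicals and odorants, and are known mainly from sustentacular cells and Bowman glands, the supporting and gland cells around the olfactory neurons. Ugt2a1 is the form known for its high level in this tissue. Ugt1a1 conjugates bilirubin, and Ugt1a6 enzymes conjugate simple phenols. Both families are built in an unusual way: alternative first exons, each with its own start site, are spliced to 1 common set of later exons, so the members differ in the part of the protein that binds the substrate and share the part that binds UDP-glucuronic acid.

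The gene structure decides what can be measured here. In GENCODE M21 (build GRCm38, the same assembly as mm10) the 7 Ugt1a genes of the list lie on the plus strand of chromosome 1, have 1 exon of their own each and share 4 exons, which start at position 88215044 and end at 88218997 in 6 of them (88219004 in Ugt1a10). Ugt2a1 and Ugt2a2 lie on the minus strand of chromosome 5, from 87459490 to 87490871 and to 87482260, have 2 exons of their own and share 5. The sequences below cross the junction between the last coding bases of a gene's own exon, in lower case, and the first bases of the shared exon, in capitals, and are shown because the capitals are the stretch in which a read counts for every gene of its family. They were read 5′ to 3′ along each gene from the GENCODE transcripts.
Ugt2a1 (chr5:87486029-87486064 to chr5:87465521-87465556, minus strand): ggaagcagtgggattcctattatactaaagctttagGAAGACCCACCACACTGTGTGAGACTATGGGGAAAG
Ugt2a2 (chr5:87474390-87474425 to chr5:87465521-87465556, minus strand): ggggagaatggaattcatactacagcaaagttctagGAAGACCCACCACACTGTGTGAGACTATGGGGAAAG
Ugt1a1 (chr1:88212836-88212871 to chr1:88215044-88215079, plus strand): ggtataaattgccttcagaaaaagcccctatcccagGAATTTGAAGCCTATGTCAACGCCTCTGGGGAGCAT
Ugt1a6a (chr1:88139296-88139331 to chr1:88215044-88215079, plus strand): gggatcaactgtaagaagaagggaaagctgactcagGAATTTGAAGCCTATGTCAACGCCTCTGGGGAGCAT
Ugt1a6b (chr1:88107764-88107799 to chr1:88215044-88215079, plus strand): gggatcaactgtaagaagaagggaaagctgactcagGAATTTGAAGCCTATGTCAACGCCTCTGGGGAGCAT
Ugt1a9 (chr1:88071643-88071678 to chr1:88215044-88215079, plus strand): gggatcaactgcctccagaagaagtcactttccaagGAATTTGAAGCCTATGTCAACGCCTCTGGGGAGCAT

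In these windows the 36 shared bases are identical within a family, and between Ugt2a1 and Ugt1a6a 10 of 36 are. The 36 bases of the own exon are identical between Ugt1a6a and Ugt1a6b (36 of 36), and between Ugt1a2 and Ugt1a5 (36 of 36), whereas Ugt1a1 and Ugt1a6a share 18 of 36 and Ugt2a1 and Ugt2a2 share 23 of 36. Along the whole transcript the shared exons hold 1771 bases and the own exons 799 in Ugt2a1 and 768 in Ugt2a2. In Ugt1a6a they hold 1311 and 954 bases.

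The counts followed that structure, and the 9 genes are 2 measurements. Reads were counted for a gene if they aligned to 1 place only. Ugt1a5, Ugt1a9 and Ugt1a10 had equal counts in 23 of 23 libraries, 11966 reads in all. Ugt1a2 had 2 reads more, in 1 library, Ugt1a6b had 60 more, Ugt1a1 86 more and Ugt1a6a 119 more over all libraries together. These extra reads, at most 0.985% of a gene's count, are all that tells the 7 genes apart. The measurement therefore cannot say how the shared reads divide among the Ugt1a forms. Ugt1a6a, with the highest total of 12085 counts (225 to 922 per library), stands for the 7 below. Ugt1a7c, a gene of the same cluster that is not in the list, had 17.9% of its count above that of the lowest member. The annotation gives it a longer last exon as well as its own first exon, and the counts do not tell these apart. Ugt2a1 had 100096 counts in all (221 to 10702 per library) and Ugt2a2 had 91119. Ugt2a1 exceeded Ugt2a2 in all 23 libraries, by 1.84 to 15.4% of its own count (median 7.77%), and it stands for both below. Since a shared read counts once for each gene, the genes of a family were never added up.

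**Figure D1:**
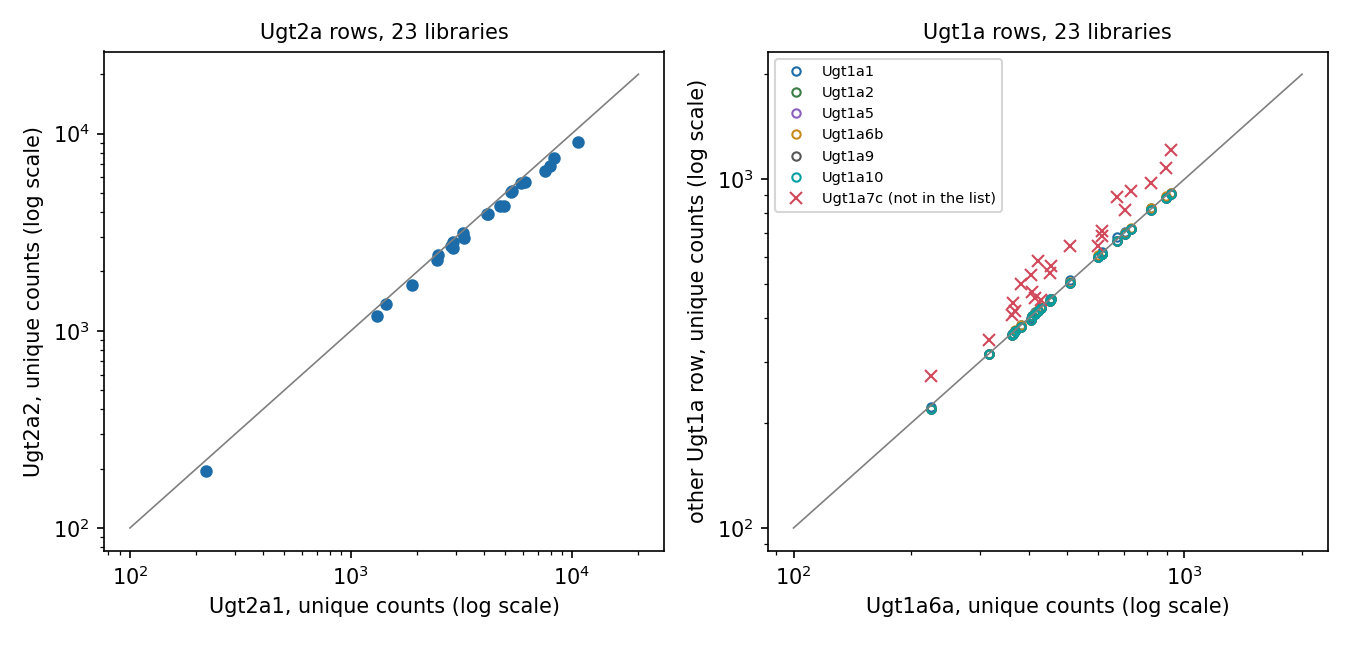
Counts of uniquely aligned reads in each of the 23 libraries, on log axes: Ugt2a2 against Ugt2a1 on the left, and the other Ugt1a genes against Ugt1a6a on the right, with the line of equality in grey. The 6 listed Ugt1a genes lie on the line, Ugt1a7c (crosses, not in the list) lies above it, and Ugt2a2 lies a little below Ugt2a1 in every library.

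The libraries held 2118099 to 4151769 unique counts in the acetophenone experiment and from 2672161 to 9526932 in the TMT experiment, so that even the library with the fewest reads of a measurement held 221 of Ugt2a1 and 225 of Ugt1a6a. Levels are given as CPM, counts scaled to a common library size with TMM (an edgeR scaling that assumes most genes to be level between libraries). The tissue label was checked against markers: all 11 sustentacular markers had counts in every library (summed level 7769 to 14095 CPM), Bowman gland markers summed to 17268 to 87837 CPM, and mature neuron markers to 1896 to 9653 CPM. Markers of hepatocytes, cells outside this tissue that are rich in Ugt enzymes, summed to 66.8 CPM or less, and Cyp3a11 was at 0 in each group.

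Ugt2a1 was the more abundant measurement at nearly every point. Per kilobase of transcript its mean level was 587 CPM in acetophenone controls, against 69.8 CPM per kilobase for Ugt1a6a. The whole transcript was taken as the length, 2570 and 2265 bases. Yet only 0.985% of the Ugt1a6a count set it apart from the lowest Ugt1a gene, although its own exon holds 954 bases. The levels per length are therefore a rough scale, and none was computed on the shared exons alone. The ratio of the levels per length ranged from 6.62 to 13.8 in the 11 acetophenone libraries, and from 0.529 to 8.95 in the TMT libraries. The lowest ratio was that of the TMT control of litter 2, the only library in which Ugt2a1 was below Ugt1a6a per length. The other Ugt genes in the files were nearly absent: Ugt8a, which makes the galactolipids of myelin, had 132 reads over all libraries, Ugt2a3 had 19, and the Ugt2b and Ugt3a genes had 0 to 7 each.

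Both measurements were higher after 100% TMT than in the controls of the same litters. The Ugt2a1 level in the controls of TMT litters 1 to 4 was 682, 36.5, 183 and 260 CPM. With 1% TMT it was 1114, 272, 350 and 661 CPM in the same order, and with 100% TMT it was 959, 862, 1054 and 1071 CPM. The 4 libraries at 100% lay close together and above all 4 controls, while controls and the 1% dose were widely spread and overlapped. The mean was 291 ± 277 CPM (SD, n = 4) in controls, 599 ± 382 at 1% and 986 ± 96.2 at 100%. Within litters the ratio of 100% TMT to control was 1.41, 23.6, 5.75 and 4.11, and the control of litter 2, with 221 reads, gave the highest of these.

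For Ugt1a6a the controls of TMT litters 1 to 4 had 96.2, 60.8, 63.3 and 40.5 CPM. The 1% dose gave 125, 101, 74.3 and 78.4 CPM, and 100% TMT gave 140, 145, 157 and 105 CPM. The spread was smaller than that of Ugt2a1, and again every library at 100% lay above every control. The means were 65.2 ± 23.1 CPM (SD, n = 4), 94.8 ± 23.4 and 137 ± 22.1. Control, 1% and 100% stood in ascending order in 4 of 4 litters for Ugt1a6a and in 3 of 4 for Ugt2a1, where litter 1 was highest at 1%. In a tissue sample such as this, differences in the number of cells of a type, in RNA per cell and in pS6 on its ribosomes cannot be told apart. Of the 13233 genes tested, 1.03% had that order in all 4 litters, and 4.5% had every library at 100% TMT above every control. Both measurements belong to that 4.5%.

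**Figure D2:**
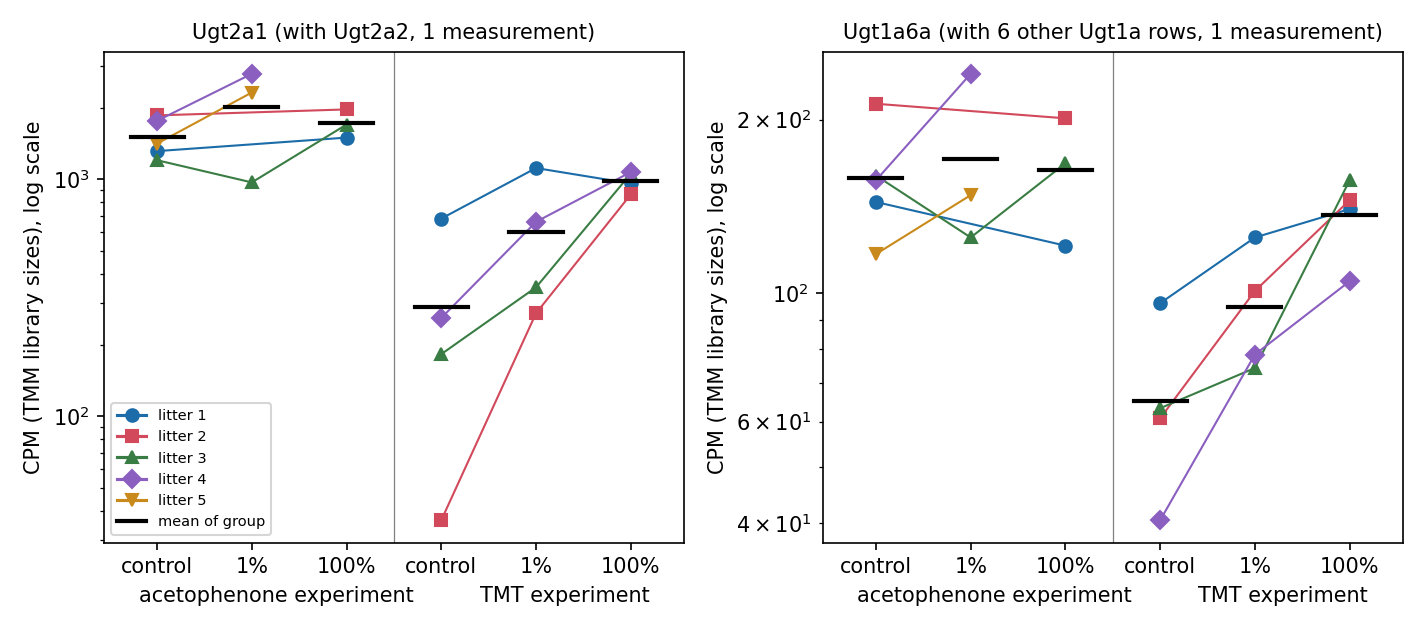
Level of each measurement in every library (CPM with TMM library sizes, log axis) by group, with 1 point per library, lines joining the libraries of a litter and black bars at the group means. In the TMT experiment the 100% libraries lie between 862 and 1071 CPM for Ugt2a1 and between 105 and 157 CPM for Ugt1a6a, above all controls of that experiment, and the acetophenone libraries show no such step.

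The test of these differences depended on whether litter was in the model. Without litter, edgeR's quasi-likelihood test called none of the 9 genes, nor any other of the 13233 genes tested (0% higher). Ugt2a1 was 3.43-fold higher (log2 1.78, SE 0.64, edgeR adjusted p = 0.239). Ugt1a6a was 2.13-fold higher (log2 1.09, SE 0.27, edgeR adjusted p = 0.151). Counted at p under 0.05 without adjustment, 1102 genes were higher and 842 lower, and DESeq2 called 308 genes higher, among them the 7 Ugt1a genes (adjusted p = 0.0103 for Ugt1a6a) and not Ugt2a1. With litter as a block, which compares libraries within litters, all 9 genes rose, where 1.84% of the genes tested were called higher. Ugt2a1 rose by 2.40 on the log2 scale (SE 0.48, 5.26-fold, edgeR adjusted p = 0.0309), higher in 4 of 4 litters, as were 14% of the genes tested. Ugt1a6a rose by 1.15 (SE 0.20, 2.22-fold, edgeR adjusted p = 0.0213), also in 4 of 4 litters. Since the 9 genes are 2 measurements, these are 2 calls and not 9. When genes with the same counts were taken as 1 gene each, both measurements still passed.

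Leaving out litter 2, 3 or 4 ended both calls, with log2 fold changes of 1.77, 2.32 and 2.51 for Ugt2a1 (edgeR adjusted p = 0.118, 0.142 and 0.125) and of 1.11, 1.08 and 1.06 for Ugt1a6a (edgeR adjusted p = 0.124, 0.0985 and 0.108). Without litter 1, whose libraries carry another code series in their titles, they were 2.97 and 1.33, and both passed (edgeR adjusted p = 0.0195 and 0.0253).

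The base composition of the libraries moved with the dose. The mean GC content of the transcripts that the reads fell on was 52.5 to 53.2% in the TMT controls, 51.8 to 52.7% at 1% and 51.6 to 52.3% at 100%, and it was higher in the control than at 100% in each litter (52.7 and 51.9%, 53.2 and 52.3%, 52.9 and 52.0%, 52.5 and 51.6%). Ugt2a1 is GC-poor, with 39.9%, and Ugt1a6a has 47.4%. With a correction of each library for GC content and transcript length, in the fit with the litter block, Ugt2a1 had a log2 value of 1.50 (SE 0.54, edgeR adjusted p = 0.179) and no longer passed. Ugt1a6a had 0.86 (SE 0.17, edgeR adjusted p = 0.0429) and still passed. That correction shifted the median of all genes from 0.02 to 0.10 on the log2 scale. It also gave the 7 Ugt1a genes, whose counts are nearly equal, values from 0.64 to 1.09, of which 4 passed, because it reads each gene's own length and GC content from the annotation. The corrected Ugt2a value depends on the gene taken in the same way, since Ugt2a2 has a GC content of 42.6%. Only that of Ugt2a1 is given here.

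**Figure D3:**
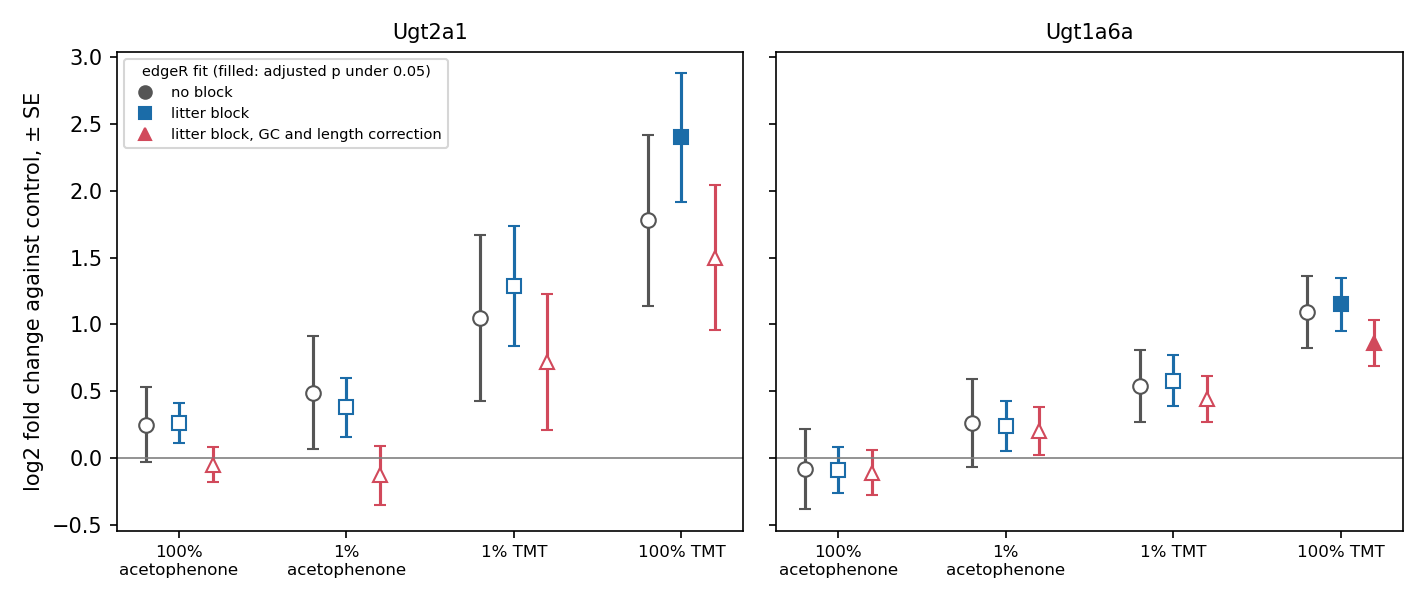
Log2 fold change against control with its SE for Ugt2a1 (left) and Ugt1a6a (right), for each odor and dose, in 3 edgeR fits: without litter (circles), with litter as a block (squares), and with the block and a correction for GC content and length (triangles). Filled symbols have an adjusted p under 0.05, which Ugt2a1 reached with the block alone at 100% TMT and Ugt1a6a with the block, corrected or not.

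The 1% dose of TMT gave smaller differences that did not pass. Within litters the ratio of 1% TMT to control was 1.63, 7.45, 1.91 and 2.54 for Ugt2a1 and 1.3, 1.67, 1.17 and 1.93 for Ugt1a6a, above 1 in 4 of 4 litters for both. That direction in every litter was seen for 8.77% of the genes tested. With the block the log2 fold changes were 1.29 (SE 0.45) and 0.58 (SE 0.19), each with an edgeR adjusted p of 0.689, and 1 gene of 13233 was called higher (0.00756%). Between 100% and 1% TMT, Ugt2a1 differed within litters by 1.10 on the log2 scale (SE 0.44, edgeR adjusted p = 0.598) and Ugt1a6a by 0.57 (SE 0.19, edgeR adjusted p = 0.546), and no gene was called by edgeR in either direction (567 higher and 501 lower counted at p under 0.05 without adjustment in that fit, while DESeq2 without the block called 9 and 13).

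Acetophenone gave no difference that passed for any of the 9 genes. The Ugt2a1 level in the controls of acetophenone litters 1 to 5 was 1313, 1857, 1202, 1762 and 1412 CPM. It was 1497, 1968 and 1699 CPM with 100% acetophenone in litters 1 to 3, and 969, 2780 and 2319 CPM with 1% in litters 3 to 5. At both doses the levels overlapped those of the controls of the same litters, whereas 1.75% of the genes tested had every library at 100%, and 1.61% every library at 1%, above every such control. Ugt1a6a had 144, 213, 160, 157 and 117 CPM in the controls, 121, 201 and 168 CPM at 100%, and 125, 240 and 148 CPM at 1%. These ranges overlapped as well, and the 1% library of litter 4 was the highest of the series for both measurements.

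Within litters the ratio of 100% acetophenone to control was 1.14, 1.06 and 1.41 for Ugt2a1, above 1 in 3 of 3 litters, as it was for 14.6% of the genes tested. For Ugt1a6a it was 0.837, 0.943 and 1.05. With the block the log2 fold changes were 0.26 (SE 0.15, edgeR adjusted p = 0.897) and -0.09 (SE 0.17, edgeR adjusted p = 0.966), with 0.0951% of 11564 genes called higher. With 1% acetophenone the ratios in litters 3, 4 and 5 were 0.806, 1.58 and 1.64 for Ugt2a1 and 0.784, 1.53 and 1.27 for Ugt1a6a, so litter 3 went the other way from litters 4 and 5 in both. Of the genes tested, 15.2% were higher in all 3 of these litters. The log2 fold changes were 0.38 (SE 0.22, edgeR adjusted p = 0.663) and 0.24 (SE 0.19, edgeR adjusted p = 0.782) with the block, with 0.00828% of 12077 genes called higher. After the GC and length correction Ugt2a1 had -0.05 at 100% and -0.13 at 1%, which turned its direction. Between the doses, with litter in the model, the log2 fold change of 100% against 1% was 0.10 (SE 0.28) for Ugt2a1 and -0.15 (SE 0.25) for Ugt1a6a (edgeR adjusted p = 0.967 and 0.946). In litter 3, the only one with both doses, Ugt2a1 was 1.75 times and Ugt1a6a 1.34 times as high at 100% as at 1%.

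The responses to the odors were compared directly, each against its own controls. At 100% the difference between the TMT and the acetophenone response within litters was 2.11 on the log2 scale for Ugt2a1 (SE 0.73, edgeR adjusted p = 0.322) and 1.21 for Ugt1a6a (SE 0.27, edgeR adjusted p = 0.162), and neither passed, with 9 of 13033 genes called (0.0691%). At 1% the differences were 1.03 (SE 0.49) and 0.32 (SE 0.28), each with an edgeR adjusted p of 0.999. A rise that passed with TMT and not with acetophenone was therefore not shown to differ between the odors.

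The level at which the controls stood differed between the experiments. Ugt2a1 averaged 1509 ± 286 CPM (SD, n = 5) in acetophenone controls and 291 ± 277 CPM (SD, n = 4) in TMT controls, and Ugt1a6a averaged 158 ± 35.1 and 65.2 ± 23.1 CPM. No TMT control reached the lowest acetophenone control in either measurement. The share of all genes whose controls lay apart in this way was not counted, so that separation is a description only. The log2 difference was -2.35 (SE 0.63, edgeR adjusted p = 0.0319) for Ugt2a1 and -1.24 (SE 0.30, edgeR adjusted p = 0.0233) for Ugt1a6a, and all 9 genes were lower, as were 8.76% of the 12315 genes tested, while 5.68% were higher. These calls were lost without the TMT control of litter 3 or of litter 4 (edgeR adjusted p = 0.0945 and 0.0923 for Ugt2a1, 0.0725 and 0.0757 for Ugt1a6a). Without the TMT control of litter 2, Ugt1a6a had an edgeR adjusted p of 0.061 and 2 of the 9 genes passed. Ugt2a1 also lost its call without the acetophenone control of litter 1, 2, 4 or 5 (edgeR adjusted p = 0.0569, 0.0544, 0.0582 and 0.0520). Experiment cannot be told apart from litter here, nor from library series outside the 1 series that holds controls of both experiments. Mature neuron markers summed to 5046 to 9062 CPM in the acetophenone controls and 1896 to 4291 CPM in the TMT controls, sustentacular markers to 9881 to 11914 and 9176 to 10481 CPM. Within the latter list members differed: Sult1c1, Ermn and Muc2 were lower in the TMT controls by the edgeR test, the median log2 difference of the 11 was -0.47, Cyp2g1 averaged 632 against 1697 CPM, and Cbr2, the largest, averaged 5642 against 4082 CPM. The mean transcript GC content was at most 52.2% in the acetophenone controls and 52.5 to 53.2% in the TMT controls. The part of these in the Ugt difference was not tested. Within the 1 code series that holds controls of both experiments, Ugt2a1 was at 1762 and 1412 CPM in the acetophenone controls and at 682 CPM in the TMT control, and Ugt1a6a at 157, 117 and 96.2 CPM.

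Over the 6 groups, the mean of Ugt2a1 was in the order 1% acetophenone (2023 CPM), 100% acetophenone (1721), acetophenone control (1509), 100% TMT (986), 1% TMT (599) and TMT control (291). Neighbours in that order overlapped in their libraries, except the acetophenone controls and 100% TMT. Ugt1a6a had the same order, from 171 to 65.2 CPM, and there all neighbours overlapped. The highest level of Ugt2a1 in the TMT experiment, 1114 CPM, was below all acetophenone controls. How many of all genes lay apart like this between the experiments was not counted.

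The cells known to carry Ugt enzymes were followed through their markers beside the rise with 100% TMT. The sum of the 11 sustentacular markers was 0.925 to 1.09 times that of the control within litters and higher in 2 of 4. With the block none of the 11 passed, 7 were above 0 and the median log2 was 0.30, against 0.02 for all genes tested. Per unit of that sum, Ugt2a1 was 1.52 to 25.3 times and Ugt1a6a 1.58 to 2.55 times as high as in the control, in 4 of 4 litters. The single markers differed from one another. Cbr2, a carbonyl reductase that made up 43.6% of the sum and has a GC content of 57.5%, was lower in 4 of 4 litters (0.738 to 0.875 times). Of the next largest, Cyp1a2, a cytochrome P450, was 1.01 to 1.49 times the control and the keratin Krt18 was 0.78 to 1.03 times. Cyp2g1, a cytochrome P450 of the olfactory mucosa, was 0.77 to 6.39 times as high as in controls. Sult1c1, a sulfotransferase (42.8% GC), was 1.45 to 30.4 times as high and Ermn, an actin-binding protein (38.0% GC), 1.35 to 31.1 times, in 4 of 4 litters each, without passing (edgeR adjusted p = 0.0772 and 0.0593). Relative to Cyp2g1 alone, Ugt2a1 was 1.53 to 4.05 times as high as in the control in 4 of 4 litters, and Ugt1a6a was higher in 2 of 4.

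Summed Bowman gland markers were 0.729 to 2.42 times the control and higher in 3 of 4 litters. Most of that sum was 1 gene, the odorant-binding protein Obp2a, with 38021 ± 24379 CPM (SD, n = 4) in controls and 58261 ± 16677 at 100% TMT, higher in 3 of 4 litters without passing (log2 0.77, SE 0.30, edgeR adjusted p = 0.183 with the block). Of the 10 gland markers 7 were above 0 (median log2 0.35) and 1 passed, Dmbt1, a secreted mucin-like protein (log2 1.15, edgeR adjusted p = 0.0268 with the block). Bpifb4, the next largest after Obp2a in the mean of all 23 libraries, was lower in 4 of 4 litters without passing (log2 -0.30, SE 0.11, edgeR adjusted p = 0.164 with the block). Bpifb9b was higher in 4 of 4 litters without passing, with 477 ± 505 CPM (SD, n = 4) in controls and 1026 ± 431 at 100% TMT. Per unit of the gland sum Ugt2a1 was 0.628 to 13.8 times the control, above 1 in 3 of 4 litters. The sum of the mature neuron markers was 1.18 to 2.06 times the control (4 of 4 litters), with 9 of 11 above 0, none passing and a median log2 of 0.17. The sum of the immature neuron markers was 0.589 to 0.729 times the control (lower in 4 of 4), with 1 of 7 tested above 0 (median log2 -0.61) and Tubb3, a neuronal tubulin, passing (log2 -1.10, edgeR adjusted p = 0.00603 with the block, and -0.65, edgeR adjusted p = 0.0392, after the GC and length correction). The summed markers of ensheathing glia and endothelium were 0.563 to 0.734 times the control, and nearly all of that sum was the apolipoprotein Apoe (log2 -0.81, edgeR adjusted p = 0.0196 with the block), which no longer passed after the GC and length correction (log2 -0.26, SE 0.12, edgeR adjusted p = 0.315). Of the 5 markers tested in that list 3 were above 0 (median log2 0.16), and the endothelial Pecam1 was higher in 4 of 4 litters without passing (log2 1.77, SE 0.59, edgeR adjusted p = 0.127 with the block). The part of the marker lists in the Ugt rise was not tested.

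**Figure D4:**
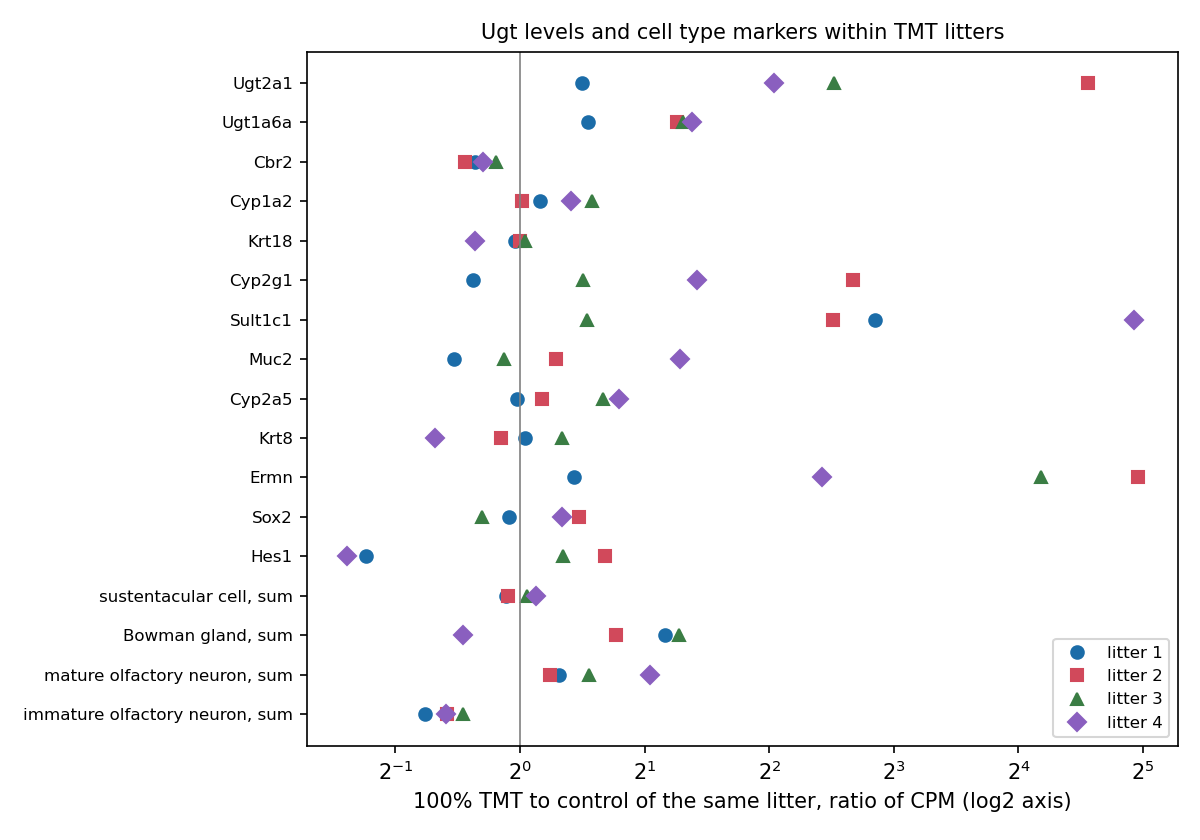
Ratio of 100% TMT to the control of the same litter, on a log2 axis, with 1 point per litter, for the Ugt measurements, each of the 11 sustentacular markers and 4 summed marker lists. Ugt2a1 spans 1.41 to 23.6 and Ugt1a6a 1.46 to 2.6, while the sustentacular sum stays between 0.925 and 1.09 and its members Sult1c1 and Ermn reach 30.4 and 31.1.

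Of the genes that work before, beside and after glucuronidation, 5 in the pathway lists passed with 100% TMT. Counts below are from the fit with the litter block at 100% TMT, where the median log2 fold change of all genes tested was 0.02. In that fit 1.84% of the 13233 genes tested were called higher and 0.529% lower. Of the 9 genes tested for the supply of UDP-glucuronic acid and the removal of the conjugate, none passed, 8 were above 0 and the median was 0.64. Ugdh, which makes UDP-glucuronic acid, had 0.59 (SE 0.17, edgeR adjusted p = 0.0903), and Ugp2, which makes its precursor UDP-glucose, had 1.05 (SE 0.56, edgeR adjusted p = 0.334). Slc35b1, listed as a member of the nucleotide sugar transporter family, had 0.31 (SE 0.15, edgeR adjusted p = 0.282). Gusb, the lysosomal enzyme that cleaves glucuronides, which was chosen after its values were seen, had 0.64 (SE 0.19, edgeR adjusted p = 0.0936).

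The list of cytochrome P450 and other oxidation genes also holds carboxylesterases and carbonyl reductases, which are not oxidation enzymes. Of its 23 genes tested, 3 rose and none fell (median 0.50). They were Aldh1a1, a retinaldehyde dehydrogenase (log2 2.82, edgeR adjusted p = 0.00603), and the carboxylesterases Ces1d (log2 1.05, edgeR adjusted p = 0.0304) and Ces1f (log2 1.76, edgeR adjusted p = 0.0401). No P450 of the list passed. Of 20 genes tested for other kinds of conjugation, 2 rose and none fell (median 0.35), the glutathione transferases Gstm5 (log2 2.09, edgeR adjusted p = 0.046) and Gsta3 (log2 2.62, edgeR adjusted p = 0.0491). After the GC and length correction Aldh1a1, Ces1d and Gstm5 still passed, and Ces1f and Gsta3 did not (edgeR adjusted p = 0.144 and 0.0797). In the corrected fit 120 of all 13233 genes tested were called higher and 48 lower.

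None of the 7 genes tested for the export of conjugates passed (median -0.18), nor any of the 10 transcription factors known to act on Ugt genes (median 0.19). Among the exporters Abcc5 had -0.46 (SE 0.31), Abcc3 -0.18 (SE 0.25) and Abcc1 0.68 (SE 0.42). Among the factors Nfe2l2, which drives the antioxidant response, had 0.14 (SE 0.17), its inhibitor Keap1 had -0.41 (SE 0.16) and Foxa1 had -0.13 (SE 0.24). With 100% or 1% acetophenone and with 1% TMT, no gene of these lists passed with the block. Ugt1a7c rose with 100% TMT by 1.22 on the log2 scale (SE 0.21, edgeR adjusted p = 0.0213). Most of its reads count for the listed Ugt1a genes as well, and the counts cannot tell from which of these genes they came.

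The genes most like the Ugt measurements across the 23 libraries were named by Pearson's r of log2(CPM + 1) after the mean of each litter was subtracted, among 8759 genes with a mean of at least 10 CPM. For Ugt2a1 these were Farsb, a subunit of phenylalanyl-tRNA synthetase (r = 0.99), Gsta3 (0.98), and Mocs2, Nckap1, Ctxn3, Cab39l, Ces1d and Ttc33 (0.97 each). For Ugt1a6a they were Ccdc47 (0.97), the DNA repair protein Xrcc5 (0.94), the protease Ide (0.93), and Acsm4, the paraoxonase Pon1, Aldh1a1, Rhot1 and Crot (0.92 each). Ugt2a1 and Ugt1a6a themselves had r = 0.90, which was 0.91 in the 12 TMT libraries and 0.81 in the 11 acetophenone libraries. In the TMT libraries alone the 8 genes named for Ugt2a1 had r of 0.97 to 0.99 with it, and in the acetophenone libraries alone 0.47 to 0.94, so the likeness rests mostly on the TMT experiment. All 16 named genes had GC contents from 42.6 to 48.7%, below the median of 51.3% over the genes compared, and the points share library depth and base composition.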

How the data were processed

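RNA-seq of pS6 pull-downs was deposited for 23 libraries. The submitters' processing notes name Bowtie, bedtools and the build mm10, with versions and annotation not given in the sources used here. Amplified cDNA was made into libraries with a Nextera kit, per the labels' protocols. The authors deposited 1 file per library, with 23481 symbols and 20 value columns without names that never decrease along a row. The first deposited column holds whole-number counts, read from the values as uniquely aligned reads, and was used throughout. The last deposited column holds estimated counts that include reads with several alignments, shared out, and was rounded and used as an alternative. The counted reads carry no stated molecular identifiers and may repeat 1 molecule.

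Comparisons used edgeR 4.0.16 in R 4.3.3 (TMM, filterByExpr with a minimum count of 10, quasi-likelihood F test, 2-sided, Benjamini-Hochberg over all genes tested, threshold 0.05). SE is the size of the log2 fold change divided by the square root of F. All 12 TMT libraries entered 1 fit, and acetophenone libraries of 1 dose entered with same-litter controls. DESeq2 1.42.0, other size factors, no filter, GC and length correction (splines of 5 degrees of freedom, 98.5% of genes with a value) and leaving out each library or litter were alternatives. The labels mark a shared litter, so litter numbers pair libraries. Same-litter deviations correlated at 0.488 to 0.849 for acetophenone, each above the highest value with another litter, and at -0.0672 to 0.378 for TMT. Between control and 100% TMT they were also above it, in litter 4 by little (0.0432 against 0.037). In TMT litters 3 and 4 they were below it for 1% and control (0.0272 against 0.0904, 0.0259 against 0.0399). The same held there for 1% and 100% TMT (0.152 against 0.161, -0.0672 against 0.0709). The fits were also run on simulated counts with a litter effect put into every gene. Those runs therefore cannot show whether the block suits these litters. Genes whose counts differed by under 5% of their sum are 1 measurement. Named are all 9 genes, the genes of each pathway list that passed (or those of highest level where none did), and 8 genes most like each measurement. Cell type markers were named after their values were seen. The 9 genes and the lists were chosen with earlier results of these data known.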

Additional observations from a re-analysis of the deposited data

How the results depend on the processing

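Of 344 alternatives for the 2 measurements over all comparisons, 315 kept the direction and the side of the threshold, and the cause of the others was not tested. Most of these belong to comparisons that did not pass to begin with, so that total says little of the calls. The calls with 100% TMT and the block held in 3 of 7 alternatives for Ugt2a1 and 4 of 7 for Ugt1a6a. The fit without litter 1 is also the fit within code series YJG. It enters these alternatives and the total above under both names, and both measurements passed in it, so the tallies of calls that held are too high. Those between controls held in 5 of 11 and 8 of 11. With 100% TMT the replicate block gave 2.40 for Ugt2a1 and 1.15 for Ugt1a6a against 1.78 and 1.09 without it, and 9 genes of the list past the threshold against 0, and DESeq2 gave 1.10 for Ugt1a6a and 7 genes. Within litters, the GC and length correction gave 1.50 for Ugt2a1 and 4 genes, and it gave -0.05 and -0.13 for Ugt2a1 with 100% and 1% acetophenone. Leaving out a litter gave 1.77 to 2.97 for Ugt2a1, 1.06 to 1.33 for Ugt1a6a and 0 to 9 genes. The block changed no other call. Leaving out libraries gave Ugt1a6a -0.23 to 0.09 with 100% acetophenone and -0.03 to 0.52 with 1%. Between the acetophenone doses it gave -0.43 to 0.29 for Ugt2a1 and -0.57 to 0.03 for Ugt1a6a, and without the litter block Ugt2a1 had -0.23. Between controls it gave -3.18 to -1.97, -1.47 to -1.10 and 0 to 9 genes.

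Counts over all genes with 100% TMT were 0 without the block, 314 with it, 168 with the GC and length correction, 483 by DESeq2, 330 with genes of the same counts as 1 gene and 179 without litter 1. With 100% acetophenone they were 0, 11 with the block, 6 corrected and 5 by DESeq2. With 1% TMT they were 0 and 1, and 4 by DESeq2. Between the TMT doses they were 0, 4 corrected and 22 by DESeq2. For the difference between responses at 100% they were 0, and 9 with the block. Between the acetophenone doses they were 0, and 3 without a filter. Between controls the 1779 calls became 569 to 2484 when 1 library was left out (569, 603 and 752 without the TMT control of litter 4, 3 and 2, 917 and 1068 without the acetophenone control of litter 1 and 4). In the last deposited column Ugt2a1 had 1.33 to 1.47 times its unique count and Ugt1a6a 1.0 to 1.04 times. Ugt2a1 had 221 reads in the TMT control of litter 2, and the fold in that litter rests on them.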

Other observations

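The reads that set Ugt2a1 apart from Ugt2a2 took 3.17 to 6.68% of the Ugt2a1 count in the 5 libraries of code series YJ, 4.94 to 12.2% in the 9 of YJG, 5.58 to 9.11% in the 2 of YJMi and 1.84 to 15.4% in the 7 of YJA, without a test.

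In the promoters that RefSeq gives for 8 of the 9 genes (300 bases around the start, GRCm38.p6, no entry matched for Ugt1a6b), the letters GCGTG, the core of the dioxin response element, were found on either strand in 1, that of Ugt1a5, and in 32.6% of 32544 promoters of that length. The letters TGACNNNGC, the core of the antioxidant response element, were found in 0 of the 8 and in 12.4% of all.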
